A study of Mus musculus with 20 samples.

Results

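Regions bound by the glucocorticoid receptor (GR) without C/EBPbeta were described in 3T3-L1 cells 4 hours after the start of adipocyte differentiation. Overlapping peaks of GR, C/EBPbeta, C/EBPdelta, Stat5a and RXR of that time were merged into 35341 union regions (overlap of at least 1 bp). A region was chosen on the basis of its peaks if it held a GR peak and no C/EBPbeta peak. This gave 340 regions, or 8.35% (95% interval 7.52 to 9.24) of the 4071 regions with GR. The other 3731 GR regions also held C/EBPbeta. The GR and C/EBPbeta lists of 4 hours therefore define the class, and its low C/EBPbeta content at that time is not a result.

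3T3-L1 is an established mouse preadipocyte line grown in calf serum. Day 0, reached after the cells had become confluent, is labelled preadipocyte and is the day on which induction starts. The cells of 2 hours, 4 hours, day 1 and day 2 followed induction with a mixture of fetal bovine serum, 3-isobutyl-1-methylxanthine (a phosphodiesterase inhibitor), insulin and dexamethasone. On day 2 the medium was exchanged for one with fetal bovine serum and insulin, and later medium held fetal bovine serum, up to the mature adipocytes of day 6. Open chromatin was mapped as DNase I hypersensitive sites (DHS) on day 0, at 2 hours and 4 hours, and on day 1, day 2 and day 6. Proteins were mapped by ChIP-seq: C/EBPbeta on day 0, at 2 hours, at 4 hours and on day 2; C/EBPdelta on day 0 and at 4 hours; GR, Stat5a and RXR at 4 hours; and PPARgamma on day 2 and day 6. RNA polymerase II (RNA Pol II) was mapped on day 0 and at 4 hours.

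GR is a nuclear receptor that enters the nucleus and binds DNA once a glucocorticoid such as dexamethasone occupies it. It is known to use sites that are already accessible and sites where other factors bind beside it. C/EBPbeta and C/EBPdelta are bZIP transcription factors induced early in adipogenesis. They act upstream of PPARgamma, the nuclear receptor that drives the adipocyte programme together with its partner RXR. Stat5a is a signal-activated transcription factor of the JAK-STAT pathway, and RNA Pol II marks promoters and transcribed genes.

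Each group held 1 library, so no difference was measured against replicate spread. Each deposited list gives positions of peaks on build mm9 without a height or a read count, and the depth is unknown. The 6 DHS lists ran from 9055 peaks (2 hours) to 35389 (day 1), the GR list held 4080 peaks and the C/EBPbeta list of 4 hours held 29957. A region is called listed where it overlaps a peak of a list by at least 1 bp. Absence from a list does not show that a protein was missing or that chromatin was closed. Intervals of shares are exact (Clopper-Pearson) and intervals of differences are Newcombe intervals, both at 95%. They treat regions as independent and cover counting within these libraries alone.

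Each of the 340 regions held 1 GR peak, and no GR region took in C/EBPbeta through the peak of another factor alone. Where GR and C/EBPbeta met, their overlap had a median of 658 bp, and in 5 of 3731 regions it was under 100 bp. Just outside the class, the smallest overlaps were 17 bp at chrX:50566826-50568304, 20 bp at chr1:74053708-74054900 and 29 bp at chr2:5140078-5141371. Just inside it, a C/EBPbeta peak lay 7 bp from the region at chr11:11744224-11745109, 19 bp from that at chr6:99277131-99277976 and 24 bp from that at chr1:195058464-195059108. A C/EBPbeta peak of 4 hours lay under 200 bp away at 17 of the 340 regions and under 1000 bp away at 48. The median gap was 7718 bp.

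At 4 hours GR was the sole one of the 5 factors at 231 of the 340 regions (67.9%). Stat5a was the most frequent partner, at 82 regions (24.1%, 19.7 to 29.0), where 19.6% of all union regions held it. C/EBPdelta, the close relative of C/EBPbeta, was at 33 (9.71%, 6.78 to 13.4; all union regions 51.3%), and RXR at 12 (3.53%, 1.84 to 6.08; all union regions 5.83%). Regions with Stat5a but neither GR nor C/EBPbeta held C/EBPdelta at a similar share, 9.68%. By combination, 65 regions held GR with Stat5a, 21 GR with C/EBPdelta, 11 GR with both of these, 6 GR with Stat5a and RXR, 5 GR with RXR and 1 GR with C/EBPdelta and RXR. At GR regions with C/EBPbeta the order differed: C/EBPdelta was at 87.8%, Stat5a at 56.5% and RXR at 33.0%, and GR with C/EBPbeta but none of these 3 made up 281 regions (7.53%). The peaks of these 3 factors entered the merging, so their counts are given as a description. The union region had a median width of 667 bp without and 855 bp with C/EBPbeta, and the GR peak itself 644 bp (312 to 1127) and 731 bp (313 to 2110).

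Open chromatin was listed at a minority of GR regions without C/EBPbeta at every time. The day 0 list held 22 of the 340 (6.47%, 4.10 to 9.63), where it held 9.22% of all union regions. At 2 hours it held 64 (18.8%, 14.8 to 23.4; all union regions 15.5%) and at 4 hours, the time of the GR peaks, 126 (37.1%, 31.9 to 42.4; all union regions 41.3%). The count was highest on day 1, with 149 (43.8%, 38.5 to 49.3; all union regions 40.7%). It was 75 on day 2 (22.1%, 17.8 to 26.8; all union regions 30.8%) and 27 on day 6 (7.94%, 5.30 to 11.3; all union regions 9.54%). On day 2 the share of all union regions lay above the interval of the 340, and at the other times it lay within it. With the 6 lists shortened to their 9055 widest peaks, the shares were 5.88%, 18.8%, 12.6%, 15.9%, 11.2% and 5.29% from day 0 to day 6. The share at 4 hours was then below that at 2 hours. This setting changes both the length of the lists and the width of the peaks kept, and the cause was not tested.

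GR regions with C/EBPbeta were listed as open far more often. At 4 hours 79.5% of 3731 were in the DHS list, and the difference between the classes (without minus with C/EBPbeta) was -42.4 percentage points (-47.6 to -37.0). The difference was -30.5 points at 2 hours (-34.6 to -25.7), -35.4 on day 1 (-40.7 to -29.9) and -39.1 on day 2 (-43.5 to -34.2). It was smaller where few regions of either class were open, at -9.42 points on day 0 (-11.9 to -6.09) and -8.03 on day 6 (-10.7 to -4.48). Since regions with C/EBPbeta also hold more of the other factors, the 231 regions with GR alone were set against the 281 with GR and C/EBPbeta alone. At 4 hours 34.2% and 64.8% of these were listed (-30.6 points, -38.5 to -22.0). At the other induced times the difference was smaller by more than 1.5 times: -14.2 points at 2 hours (-21.0 to -7.07), -20.3 on day 1 (-28.5 to -11.6) and -15.9 on day 2 (-23.3 to -8.02). On day 0 (-3.12, -7.85 to 1.79) and day 6 (-1.82, -6.71 to 3.29) the interval then included 0. The comparison of these 231 and 281 regions was not adjusted for width. At equal list length the differences at 4 hours, day 1 and day 2 were -23.5, -21.1 and -21.5 points.

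**Figure D1:**
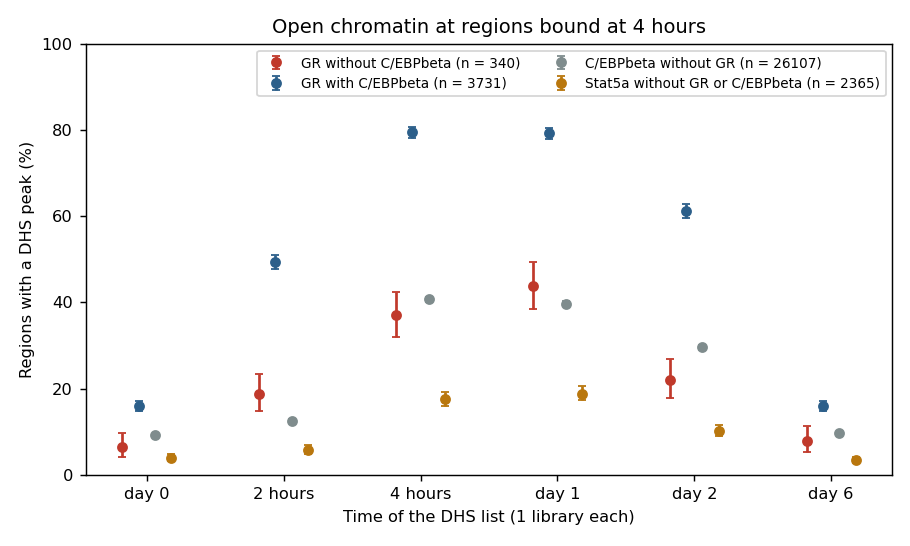
Share of regions with a DHS peak (%, vertical axis) in each DHS list (horizontal axis) for 4 classes of regions bound at 4 hours; points are shares and bars exact 95% intervals over regions, with 1 library per list. GR regions without C/EBPbeta (red) sit below GR regions with C/EBPbeta (blue) at each time, with 37.1% against 79.5% at 4 hours, and above regions with Stat5a but neither GR nor C/EBPbeta (orange).

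In the DHS lists the shares of the 340 regions lay closer to those of the 26107 regions with C/EBPbeta and no GR. The share listed at 4 hours was 37.1% and 40.8%, a difference of -3.72 points whose interval (-8.72 to 1.57) included 0. The same held for day 0 (-2.66, -4.85 to 0.486), day 1 (4.10, -1.11 to 9.45) and day 6 (-1.67, -4.13 to 1.71). GR regions without C/EBPbeta were more often listed at 2 hours (18.8% against 12.6%; 6.26 points, 2.44 to 10.8) and less often on day 2 (22.1% against 29.6%; -7.57 points, -11.7 to -2.83). A class with neither of the 2 proteins, the 2365 regions with Stat5a but no GR or C/EBPbeta, was listed less often than the GR regions at each time. At 4 hours 17.6% of it was in the DHS list, 19.5 points less (14.3 to 24.9), and on day 1 18.9%, 24.97 points less (19.5 to 30.5). Neither comparison was adjusted for the width of the regions.

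By region, 160 of the 340 (47.1%, 41.7 to 52.5) were in no DHS list, near the 45.8% of all union regions. Of GR regions with C/EBPbeta 9.78% were in none, a difference of 37.3 points (31.9 to 42.7). This difference was not recomputed by peak width, at equal list length or for GR alone against GR with C/EBPbeta alone. The most frequent pattern among the 180 regions listed at some time was 4 hours and day 1, with 35 regions. That is 10.3% of the 340, against 8.58% of GR regions with C/EBPbeta. Day 1 alone followed, with 29 regions (8.53% against 3.62%). The shares of these patterns over all union regions are not given. The pattern most frequent with C/EBPbeta, from 2 hours through day 2, was found at 13 regions (3.82%) against 18.9%. All 6 lists held 11 regions (3.24%, 1.63 to 5.72; all union regions 4.48%). All 22 regions listed on day 0 were listed at 4 hours as well, as were 590 of 593 (99.5%) with C/EBPbeta (0.506 points, -14.4 to 1.48).

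**Figure D2:**
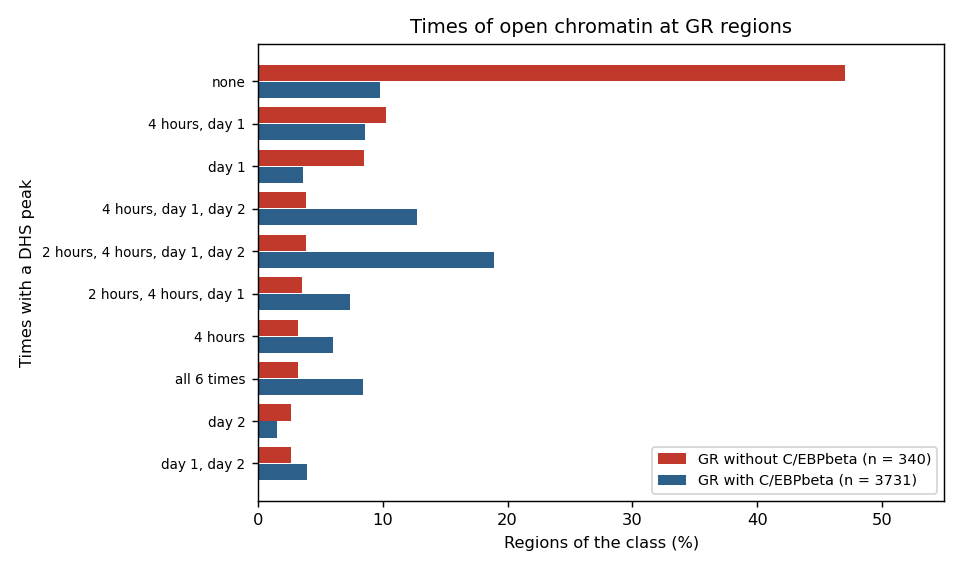
The 10 most frequent sets of times with a DHS peak among GR regions without C/EBPbeta (vertical axis), with the share of each class that has exactly that set (%, horizontal axis), in red for GR without C/EBPbeta and in blue for GR with C/EBPbeta. The set "none" holds 47.1% of the former and 9.78% of the latter.

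Among the regions listed at 4 hours, the classes were close at some later times and apart at others. On day 1, 107 of 126 without C/EBPbeta (84.9%, 77.5 to 90.7) and 88.5% of 2966 with it were listed (-3.58 points, -10.9 to 1.76), and on day 6 19.8% and 19.9% (-0.0171 points, -6.22 to 7.92). On day 2 it was 54 of 126 (42.9%, 34.1 to 52.0) against 68.7% (-25.8 points, -34.3 to -16.9). This day 2 difference shrank to -3.12 points (-15.7 to 9.96; 43.0% against 46.2%) when GR alone was set against GR with C/EBPbeta alone, and to -9.82 (-23.8 to 5.13) at equal list length. Looking back, 59 of the 126 (46.8%, 37.9 to 55.9) were already listed at 2 hours, against 60.3% with C/EBPbeta (-13.5 points, -22.1 to -4.60). Of the 214 regions not listed at 4 hours, 42 (19.6%, 14.5 to 25.6) were listed on day 1, against 43.3% of the 765 such regions with C/EBPbeta (-23.6 points, -29.6 to -16.9). The nearest DHS peak of 4 hours was within 1000 bp of 11 of these 214 (5.14%) and of 67 of the 765 with C/EBPbeta (8.76%), with median gaps of 12810.5 bp and 12416 bp. Where a DHS peak was present, its middle lay a median of 97 bp from the middle of the GR peak (67 bp with C/EBPbeta).

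GR regions were divided into 5 classes by the width of the GR peak. With GR peaks up to 607 bp, 34 of 127 regions without C/EBPbeta (26.8%, 19.3 to 35.4) and 68.9% of 698 with it were in the DHS list of 4 hours. With GR peaks of 608 to 684 bp the shares were 29 of 77 (37.7%, 26.9 to 49.4) and 73.4%, and at 685 to 764 bp 26 of 73 (35.6%, 24.7 to 47.7) and 80.8%. With GR peaks of 765 to 880 bp the shares were 21 of 45 (46.7%, 31.7 to 62.1) and 82.6%. With GR peaks from 881 bp up they were 16 of 18 (88.9%, 65.3 to 98.6) and 90.3%, and the intervals of the classes overlapped over these 18 regions. Averaged within the 5 width classes, the difference at 4 hours was -38.4 points (-43.5 to -33.2). Peak width was used because the lists hold no peak height, and how far the 2 go together was not tested.

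**Figure D3:**
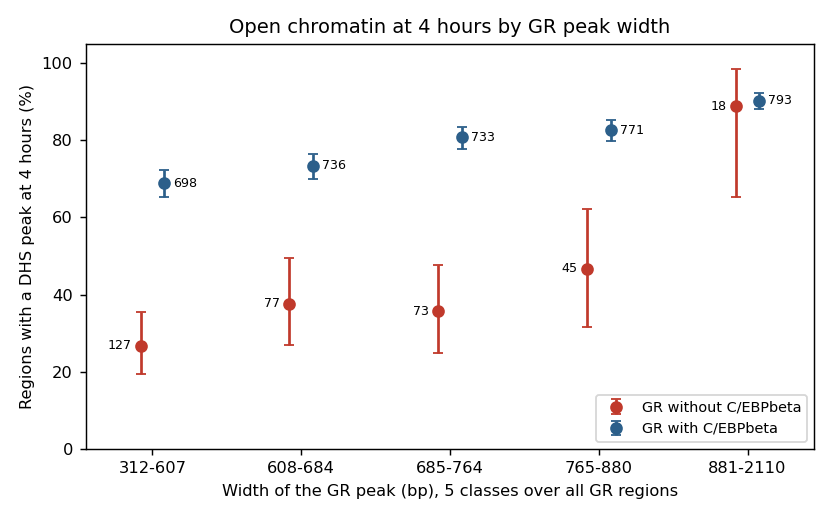
Share of GR regions with a DHS peak at 4 hours (%, vertical axis) by the width of the GR peak (bp, horizontal axis, 5 classes of about equal number over all GR regions); red points are regions without and blue points regions with C/EBPbeta, bars are exact 95% intervals and numbers beside points count regions. The red points lie between 26.8% and 46.7% in the 4 narrower classes and at 88.9% in the widest, where 18 regions without C/EBPbeta remain.

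Regions where GR had another partner were compared with GR alone. At 2 hours, before the time of the GR and partner peaks, 31 of the 109 regions with C/EBPdelta, Stat5a or RXR (28.4%, 20.2 to 37.9) and 33 of the 231 with GR alone (14.3%, 10.04 to 19.5) were in the DHS list (14.2 points, 4.99 to 24.1). At 4 hours the shares were 43.1% and 34.2% (8.92 points, -2.01 to 19.95), and on day 6 8.26% and 7.79%. With Stat5a the 2 hours list held 23 of 82 (28.0%) and the 4 hours list 34 (41.5%). Of the 12 regions with RXR, 8 were listed at 4 hours (66.7%, 34.9 to 90.1), an interval that takes in the 41.3% of all union regions. The 33 regions with C/EBPdelta were listed at 4 hours and on day 2 in equal number, 11 each (33.3%). The scored region was wider with a partner. Its median width was 632 bp with GR alone, and from 692 bp (GR with C/EBPdelta) to 881 bp (GR with RXR) in the other combinations. The comparisons by partner were not adjusted for width.

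C/EBPbeta was rarely listed at the other times as well. On day 0 it was at 11 of the 340 regions (3.24%, 1.63 to 5.72), where 43.8% of all union regions had it. It was at 25 at 2 hours (7.35%, 4.81 to 10.7; all union regions 51.1%) and at 20 on day 2 (5.88%, 3.63 to 8.94; all union regions 45.4%). Most of the 35341 union regions held C/EBPbeta at 4 hours (3731 with GR and 26107 without). The 2365 regions with Stat5a but neither GR nor C/EBPbeta had C/EBPbeta in 4.10%, 4.82% and 4.19% at these times. These shares lay within the intervals of the 340, so the low shares are not particular to GR regions. GR regions with C/EBPbeta at 4 hours had it in 62.7%, 87.5% and 74.97% of cases, so that the differences were -59.5 points (-61.6 to -56.6), -80.1 (-82.7 to -76.7) and -69.1 (-71.5 to -65.7). With GR alone against GR with C/EBPbeta alone they were -20.7, -40.9 and -16.2 points. The shares without C/EBPbeta at 4 hours moved with the peak lists used: with the wider peaks of each list they were 6.28%, 14.3% and 10.8% of 223 regions, and with peaks set to 200 bp 13.96%, 16.4% and 14.3% of 523. At 2 hours 4.33% of the regions with GR alone had it. In all, 295 regions (86.8%, 82.7 to 90.2) had C/EBPbeta in none of the 4 lists, where 32.6% of all union regions had it at none of the 3 other times. Of GR regions with C/EBPbeta at 4 hours 8.15% had it at none of these 3 (78.6 points, 74.5 to 81.9). These are libraries that the rule did not use, of the protein that it did use. Some of the distance between the classes can therefore be built in, where C/EBPbeta sites persist over time.

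The 45 regions with C/EBPbeta at another time were described by the times of C/EBPbeta and of open chromatin. C/EBPbeta was listed at 2 hours alone at 15, on day 2 alone at 15, on day 0 alone at 5, on day 0 and at 2 hours at 5, at 2 hours and on day 2 at 4, and at all 3 times at 1. The sets that follow share regions, since a region with C/EBPbeta at several times counts in each. They were not tested against each other, and matching shares over all union regions are not given. Of the 11 regions with C/EBPbeta on day 0, 6 were in the DHS list of day 0, 9 in that of 4 hours and 0 in that of day 6, which allows a share of up to 28.5%. Of the 25 with C/EBPbeta at 2 hours, 8 were in the DHS list of 2 hours and 13 in that of 4 hours. Of the 20 with C/EBPbeta on day 2, none was in the DHS list of day 0, 2 hours or 4 hours, 7 were in that of day 1 and 11 in that of day 2. A count of 0 of 20 allows a share of up to 16.8% (exact 95% interval). The single region with C/EBPbeta on day 0, at 2 hours and on day 2 but not at 4 hours lay at chr3:80813674-80814542. It held C/EBPdelta and Stat5a at 4 hours and was in no DHS list.

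**Figure D4:**
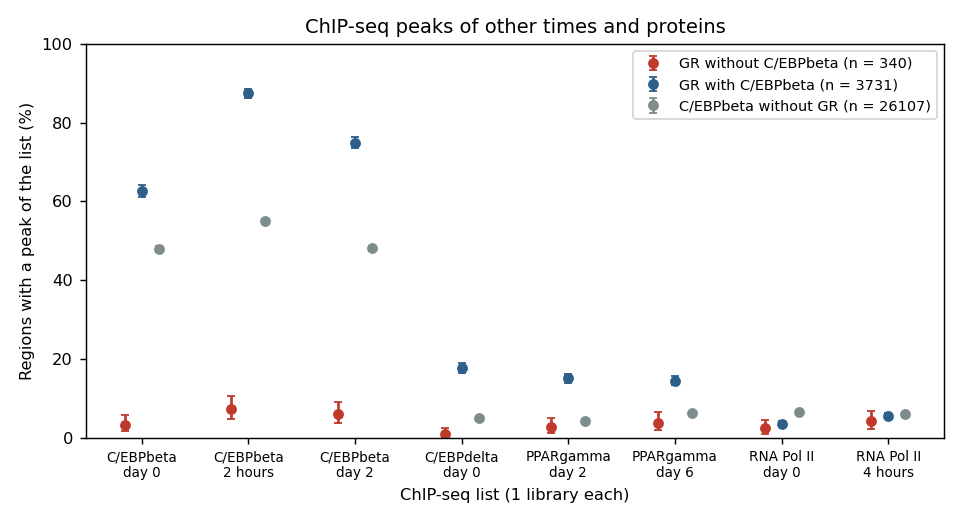
Share of regions with a peak (%, vertical axis) in 8 ChIP-seq lists that the rule did not use (horizontal axis), for GR without C/EBPbeta (red), GR with C/EBPbeta (blue) and C/EBPbeta without GR (grey); bars are exact 95% intervals over regions. The red points lie between 0.882% (C/EBPdelta of day 0) and 7.35% (C/EBPbeta of 2 hours).

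C/EBPdelta of day 0 was at 3 of the 340 regions (0.882%, 0.182 to 2.56; all union regions 6.24%), each with C/EBPbeta of day 0 beside it. Regions with Stat5a but neither GR nor C/EBPbeta held C/EBPdelta of day 0 at 1.27%. PPARgamma was at 9 regions on day 2 (2.65%, 1.22 to 4.97; all union regions 4.94%) and at 13 on day 6 (3.82%, 2.05 to 6.45; all union regions 6.42%). At GR regions with C/EBPbeta it was at 15.0% and 14.4% (-12.4 points, -14.1 to -9.83, and -10.5 points, -12.5 to -7.72). At regions with C/EBPbeta and no GR it was at 4.22% and 6.19%, within the intervals of the 340. At regions with Stat5a but neither GR nor C/EBPbeta it was at 1.06% and 1.52%, below those intervals. The PPARgamma differences were not recomputed for GR alone against GR with C/EBPbeta alone. Of the 15 regions with PPARgamma on either day, 13 were in the DHS list of day 2 and 5 in that of day 6. The matching shares over all union regions with PPARgamma are not given, so these counts are a description only. PPARgamma was listed on both days at 7 regions (2.06%; all union regions 3.36%), of which 4 had C/EBPbeta on day 2. The 3 widest of these 7 lay at chr15:66573823-66574596, chr9:75210685-75211433 and chr12:16636849-16637582. The first and the last were in the DHS list of day 2 alone and had C/EBPbeta on day 2. The chromosome 9 region was in the DHS lists of 4 hours, day 1, day 2 and day 6.

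RNA Pol II showed no such distance between the GR classes. It was at 8 of the 340 regions on day 0 (2.35%, 1.02 to 4.58; all union regions 6.19%) and at 14 at 4 hours (4.12%, 2.27 to 6.81; all union regions 6.12%). GR regions with C/EBPbeta had it in 3.46% and 5.47% (-1.10 points, -2.42 to 1.18, and -1.35 points, -3.17 to 1.41). Of the 17 regions with RNA Pol II in either list, 16 were in the DHS list of 4 hours, 14 in that of 2 hours and 9 in that of day 6. All 5 regions with RNA Pol II in both lists were in the DHS lists of 2 hours through day 6. The matching shares over all union regions with RNA Pol II are not given, so these counts only describe the 340 regions. The median gap to the nearest RNA Pol II peak of 4 hours was 73587.5 bp without and 75297 bp with C/EBPbeta, so that most regions of both classes lay far from it.

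The 340 regions were also divided by their gap to the nearest C/EBPbeta peak of 4 hours. Of the 17 regions with a gap under 200 bp, 10 were in the DHS list of 4 hours (58.8%, 32.9 to 81.6). The share was 14 of 31 (45.2%) at 200 bp to 1 kb, 34 of 87 (39.1%) at 1 to 5 kb, 36 of 102 (35.3%) at 5 to 20 kb and 32 of 103 (31.1%, 22.3 to 40.9) at 20 kb or more. The intervals overlapped, those of the nearest and farthest bins included, no trend was tested, and the bin under 200 bp is thin. For the 2 hours list the shares were 35.3%, 29.0%, 21.8%, 17.6% and 11.7% in the same order, and for day 2 they had no steady order (23.5%, 25.8%, 19.5%, 23.5% and 21.4%). The day 0 list held 10 of the 48 regions with a gap under 1000 bp and 12 of the other 292 (4.11%, 2.14 to 7.07). By bin it held 4 of 17 under 200 bp (23.5%, 6.81 to 49.9) and 6 of 31 at 200 bp to 1 kb (19.4%, 7.45 to 37.5). It held 9.22% of all union regions. The shares by gap were not adjusted for width, and the day 0 difference was not tested. Without those 48 regions the difference to GR with C/EBPbeta at 4 hours was -44.6 points (-50.0 to -38.8).

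**Figure D5:**
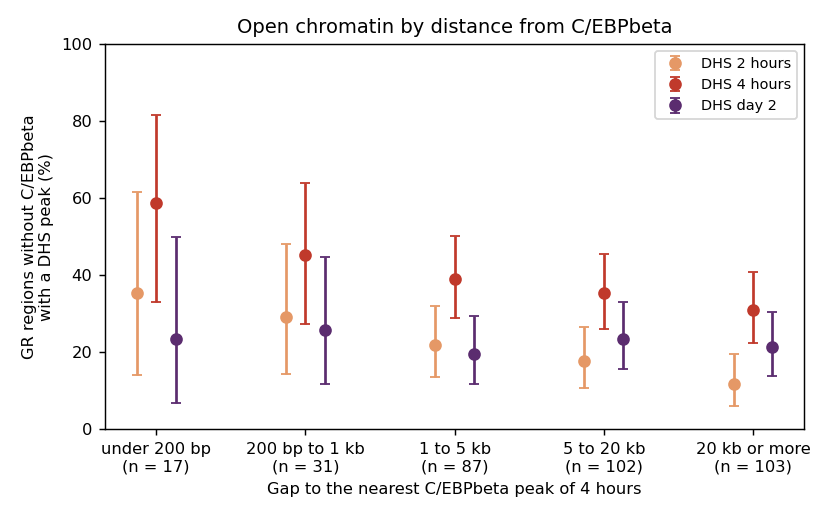
Share of the 340 GR regions without C/EBPbeta that have a DHS peak (%, vertical axis) by the gap between the region and the nearest C/EBPbeta peak of 4 hours (horizontal axis, n regions per bin), for the DHS lists of 2 hours, 4 hours and day 2; bars are exact 95% intervals. At 4 hours the share is 58.8% under 200 bp and 31.1% at 20 kb or more, with overlapping intervals.

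The regions farthest from C/EBPbeta were GR peaks with nothing else in any list. They lay at chr6:79767771-79768082 (gap 2193628 bp), chr8:101204016-101204862 (969734 bp) and chr1:34809605-34809917 (566234 bp). The first and the last are 312 and 313 bp wide, close to the narrowest GR peak of the list (312 bp). In all, 109 of the 340 regions were in the GR list and no other of the 19 lists, and 66 were in 1 further list. The nearest other GR region was within 10 kb of 66 of the 340 (19.4%) and of 23.5% of GR regions with C/EBPbeta.

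At the other end, 1 region was in 10 of the 19 lists and 5 were in 9. The former lay at chr11:88885511-88886187, with RXR beside GR, all 6 DHS lists and PPARgamma on both days. Of those in 9 lists, the 4 widest lay at chr16:15948037-15949023 and chr16:25059101-25059908, chr17:27278640-27279354 and chr14:37948777-37949375. Each of these 4 held both RNA Pol II peaks and the DHS lists of 2 hours through day 6, and none had C/EBPbeta at any time. Of these, the wider region on chromosome 16 was not listed on day 0, and it also held Stat5a.

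Among the 5 widest regions, Stat5a was present at 4. The widest joined GR, C/EBPdelta and Stat5a at chr18:33834006-33835220 (1215 bp) and was in the DHS lists of 2 hours, 4 hours, day 1 and day 2. The next, at chr2:151837799-151838934 (1136 bp), held GR and Stat5a and had the same 4 open times. GR alone covered 1127 bp at chr11:89887858-89888984, listed at 4 hours and on day 1. The other 2, with Stat5a, lay at chr3:109621811-109622937 (day 1 alone) and chr13:46146473-46147584 (in no DHS list). Width of the region was in part set by merging: the GR peaks of these 2 were 783 and 639 bp wide.

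Regions of one combination differed in their open times. Of the 3 widest with GR alone, that at chr4:132781513-132782568 was listed at 4 hours and on day 1, like the chromosome 11 one, and that at chr4:9885932-9886992 (1061 bp) was in no list but that of GR. With C/EBPdelta but neither Stat5a nor RXR, the 3 widest of 21 lay at chr2:103961829-103962780, chr9:115152498-115153341 and chr4:11050650-11051472. Each of these 3 was listed at 4 hours, on day 1 and on day 2. Of all 33 regions with C/EBPdelta, 11 were listed at 4 hours, 15 on day 1 and 11 on day 2. The chromosome 9 region had C/EBPbeta on day 0 and at 2 hours. The chromosome 4 region had it at 2 hours and was also in the DHS and PPARgamma lists of day 6, and the chromosome 2 region held RNA Pol II on day 0. With C/EBPdelta and Stat5a, that at chr4:150149996-150150943 was listed from 2 hours through day 2. The single region with C/EBPdelta and RXR, at chr14:119048449-119049273, was listed on day 1 alone.

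The regions with RXR, few as they were, varied likewise. With RXR but neither C/EBPdelta nor Stat5a, the 3 widest lay at chr11:98905164-98906180, chr17:66713928-66714845 and chr9:48531422-48532302. All of these 3 were listed at 4 hours and on day 1, and the chromosome 17 region held RNA Pol II at 4 hours. With Stat5a and RXR, the region at chr8:42287230-42288161 was listed from 2 hours through day 6. That at chr16:65386784-65387663 was listed at 4 hours alone, and that at chr6:86727345-86728150 in no DHS list.

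Of the 11 regions in all 6 DHS lists, the 3 widest held GR alone. They lay at chr11:51729156-51730139, which also had RNA Pol II at 4 hours, at chr11:11744224-11745109 and at chr6:99277131-99277976. The last 2 are those with a C/EBPbeta peak 7 and 19 bp away, so that they leave the class with a merging gap of 500 bp. Beside the regions on chromosomes 13 and 4 named above, the widest with no DHS peak and no C/EBPbeta at any time was at chr6:143805539-143806517, with Stat5a and a C/EBPbeta peak of 4 hours 375 bp away.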

How the data were processed

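DHS-seq and ChIP-seq peak lists of 19 libraries of 3T3-L1 cells were used. Each list deposited by the authors holds 3 columns (chromosome, start and end of a peak, in bp) with no score, per the file headers. The build is mm9, per the submitters' processing notes. Peak caller, threshold, read depth and any pooling are not given in the sources used here. The input control was not analysed here. With 1 library per group there was no test between groups and no p-value. Regions were merged and scored in Python 3.11.15 with NumPy 2.4.6 and pandas 2.3.3. Intervals came from SciPy 1.17.1 and statsmodels 0.14.6 (a Wald interval for the average within width classes), and figures from Matplotlib 3.10.9. The code was tested on simulated data. Positions are counted from 1.

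The members and rules were chosen with earlier results of these data known. Regions were named by rule: the widest, those in the most lists, the widest of each combination of factors or lists, and those nearest to, farthest from or least overlapped by C/EBPbeta. Alternatives covered overlap, peak width, merging gap, list length and the regions compared. Comparisons among regions listed at 4 hours, and by partner or gap, were chosen after seeing the data. Genes and sequence are not given, since no mm9 annotation or genome was used here.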

Additional observations from a re-analysis of the deposited data

How the results depend on the processing

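The number of regions was 308 with a merging gap of 500 bp, 350 with an overlap of 50% of the shorter peak, 340 by GR peaks without merging, 523 with peaks set to 200 bp and 223 with the wider 50% of each list. Shorter peaks overlap less and shortened lists leave fewer peaks. Of 104 values recomputed for the number of regions and the 10 differences between GR regions without and with C/EBPbeta, 97 kept their direction and their side of 0 or stayed within 1.5 times the count. None reversed. With the wider 50% of each list the DHS difference of day 6 was -3.10 points (-5.87 to 0.976). With GR alone against GR with C/EBPbeta alone, which leaves fewer regions, the DHS differences of day 0 and day 6 were -3.12 and -1.82, and the day 2 difference among regions listed at 4 hours was -3.12. At equal list length the latter was -9.82 (the cause was not tested). Over the alternatives run, the DHS difference at 4 hours lay between -44.6 and -23.5 points, and the C/EBPbeta difference at 2 hours between -81.6 and -40.9. Leaving out regions under 1 kb from C/EBPbeta, or with C/EBPdelta at 4 hours, was added after seeing the data. No paired analysis was possible because each group held 1 library. Unknown read depth limits every absence from a list.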
